A study of Homo sapiens with 4 samples.

Results

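The interferon-stimulated genes described here are 37 named genes, taken as rows of the deposited gene tables by their symbols, out of 57773 gene rows. The choice was made with earlier results of these data known. RNA sequencing read their transcripts in A2780 cells, a long-established human line of ovarian adenocarcinoma per the labels. All 4 libraries are labelled wild type (WT). The libraries wogonin 3 and wogonin 4 came from cells given wogonin, a plant flavone, at 10 ug/mL for 48 h. The libraries DMSO 1 and DMSO 2 came from cells given the vehicle DMSO, per their titles. The treatment protocol of the DMSO samples repeats the wogonin treatment. The groups therefore follow the sample titles, and the DMSO time is taken as not stated. The series is about whether the compound slows ovarian cancer by way of DNA demethylation, and the labels name no interferon treatment. The design is thus 1 cell line, 1 dose and 1 time. Separate cultures within a group are not named in the labels, and the p-values below therefore cover the spread between libraries alone, which could be technical.

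Cells sense viral nucleic acid with receptors such as RIG-I and then secrete interferons, which bind receptors on the same and on neighbouring cells. The receptor kinases JAK1 and TYK2 phosphorylate STAT proteins, among them STAT2, which joins IRF9 in a complex that binds the interferon-stimulated response element, a repeat of the letters GAAA, in front of many antiviral genes. Several products of this response, among them RIG-I, STAT2 and IRF9, are themselves parts of the pathway, and many of its genes keep a low level in resting cells.

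The promoters show the sequence that these genes are known for. RefSeq promoters (GRCh38.p14, 250 bases before to 50 bases after the start) were matched for 28 of the 37 genes, DDX58 through its newer symbol RIGI. The motif searched was GAAA, any 2 bases and GAAA again, on both strands, so that on the other strand it reads TTTC, any 2 bases and TTTC, and overlapping matches were counted. It was in the promoters of 19 of the 28 genes (67.9%), against 4.38% of the 27305 genes in the same table. Of the 15 matched genes whose exon reads fell, 10 held it (66.7%), as did the 1 that rose, 4 of the 5 that did not pass the test and 4 of the 7 that were not tested. The 250 bases before the start are printed for 7 genes on the strand of the gene: HERC5, ISG15, IFIT1 and IFITM1, which fell, IFIT5, which rose, and IFITM3 and IFI6, which did not pass the test. Capitals mark the motif, and in IFITM1 and IFIT5 the last match runs past the start and is cut by the window.
HERC5: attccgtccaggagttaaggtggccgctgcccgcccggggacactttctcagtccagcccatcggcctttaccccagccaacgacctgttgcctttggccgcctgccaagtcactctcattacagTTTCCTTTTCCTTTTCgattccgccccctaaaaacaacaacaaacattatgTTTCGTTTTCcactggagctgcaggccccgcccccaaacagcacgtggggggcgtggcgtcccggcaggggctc
ISG15: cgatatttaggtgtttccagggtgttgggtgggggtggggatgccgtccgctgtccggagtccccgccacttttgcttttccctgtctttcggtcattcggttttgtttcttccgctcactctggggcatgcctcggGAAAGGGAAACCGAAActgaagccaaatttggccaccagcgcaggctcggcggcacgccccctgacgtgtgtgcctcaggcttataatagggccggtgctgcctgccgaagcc
IFIT1: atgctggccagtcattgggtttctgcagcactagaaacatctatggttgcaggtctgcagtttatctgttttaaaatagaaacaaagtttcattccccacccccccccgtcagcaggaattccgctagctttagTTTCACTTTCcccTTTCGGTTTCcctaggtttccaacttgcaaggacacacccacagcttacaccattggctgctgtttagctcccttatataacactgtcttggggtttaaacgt
IFITM1: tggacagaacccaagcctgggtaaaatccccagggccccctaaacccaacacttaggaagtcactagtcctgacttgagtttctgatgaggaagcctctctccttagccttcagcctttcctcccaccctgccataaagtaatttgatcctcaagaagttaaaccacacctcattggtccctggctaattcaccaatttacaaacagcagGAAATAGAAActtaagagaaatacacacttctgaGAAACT
IFIT5: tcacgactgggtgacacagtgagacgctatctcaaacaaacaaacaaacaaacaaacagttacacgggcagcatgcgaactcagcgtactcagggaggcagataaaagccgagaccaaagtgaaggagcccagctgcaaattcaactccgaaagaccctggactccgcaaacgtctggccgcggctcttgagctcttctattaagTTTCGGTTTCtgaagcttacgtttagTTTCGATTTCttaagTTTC
IFITM3: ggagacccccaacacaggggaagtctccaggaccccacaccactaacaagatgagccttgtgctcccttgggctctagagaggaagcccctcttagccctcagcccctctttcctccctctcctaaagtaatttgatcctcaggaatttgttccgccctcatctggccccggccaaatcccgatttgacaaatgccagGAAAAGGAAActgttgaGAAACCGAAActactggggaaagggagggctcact
IFI6: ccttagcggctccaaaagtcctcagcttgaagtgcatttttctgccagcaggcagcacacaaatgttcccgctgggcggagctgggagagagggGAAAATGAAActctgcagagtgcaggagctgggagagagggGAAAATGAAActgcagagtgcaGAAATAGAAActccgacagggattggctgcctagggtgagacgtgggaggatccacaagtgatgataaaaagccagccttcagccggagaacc
The windows lie at chr4:88456869-88457118 (HERC5, plus strand), chr1:1013247-1013496 (ISG15, plus), chr10:89392373-89392622 (IFIT1, plus), chr11:313790-314039 (IFITM1, plus), chr10:89414318-89414567 (IFIT5, plus), chr11:320861-321110 (IFITM3, minus) and chr1:27672193-27672442 (IFI6, minus), all in GRCh38.p14, while gene positions below are those of the deposited tables (GRCh37). The 7 printed windows hold the motif 2 or 3 times over the 300 bases searched, while those of GBP1, ISG20 and SAMD9 hold it 1 time. The letters were not found in the windows of DDX58, STAT2, IRF9, IRF1, HERC6, OAS1, CMPK2, IFI35 and XAF1, which says nothing about the factors that act there.

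Exon reads numbered 11005921 and 11287570 in wogonin 3 and 4, and 11478731 and 11839562 in DMSO 1 and 2. Intron reads made up 7.96% of all reads in genes with exons for wogonin 3 and 5.61% for wogonin 4, against 5.26% and 5.29% in DMSO 1 and 2, and mitochondrial genes took 3.03% of exon reads in wogonin 4 against between 1.45% and 1.67% in the other libraries. Of 12 ovarian epithelial markers, 4 were at 0 in every library and MECOM, a transcription factor gene, alone had enough reads to test. It had 136 and 166 CPM in wogonin 3 and 4 (exon counts over TMM-scaled library size) against 275 and 280 CPM in DMSO 1 and 2, a log2 fold change of -0.88 with an SE of 0.08 (adjusted p = 2.4e-06, edgeR). The list summed to 137 and 167 CPM in wogonin against 276 and 282 CPM in DMSO, nearly all of it MECOM. EPCAM had 4 and 2 reads in the wogonin libraries against 8 and 9 in the DMSO libraries, and PAX8, KRT7 and KRT18 were at or near 0. The listed markers other than MECOM are thus nearly absent, and MECOM alone does not establish an epithelial identity. Of 10 immune markers, 6, the pan-leukocyte gene PTPRC among them, were at 0 in every library, and the summed level of the list was 22.1 and 15.4 CPM in wogonin against 17.3 and 21.1 CPM in DMSO. The 6 fibroblast markers, of which FAP was at 0 in every library, summed to 9.71 and 10.7 CPM in wogonin and 16.1 and 14.7 CPM in DMSO. The 5 endothelial markers, of which VWF, CDH5 and TEK were at 0 in every library, summed to 2.15 and 2.30 CPM in wogonin and 0.254 and 0.0816 CPM in DMSO. Only 1 endothelial marker was tested, and it was called higher (log2 fold change 4.04). It passed the filter on low counts through wogonin alone, so the filter set its direction. Of 3 fibroblast markers tested, 1 was called lower and 2 did not pass, and the 1 immune marker tested did not pass. The part of these markers in the results was not tested. The whole transcriptome differed widely between the groups: of 13449 genes tested on exon reads, 63.8% passed an adjusted p of 0.05 (edgeR quasi-likelihood test, Benjamini-Hochberg), 32.3% higher and 31.5% lower in wogonin. Counts of interferon-stimulated genes and of the other pathway lists are to be read against those shares.

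Most of the interferon-stimulated genes with measurable expression were lower in wogonin-treated cells. Of the 37 genes, 26 passed the filter on low counts, and of these 19 fell, 1 rose (IFIT5) and 6 did not pass the test, with a median log2 fold change of -0.92 against -0.00 over all genes tested. The fall reached 1 log2 unit in 11 of them, a size that 9.94% of all genes tested reached downwards. In 20 of the 26 both wogonin libraries lay below both DMSO libraries, in 3 they lay above, and in 3 the groups overlapped. Over all genes tested the wogonin libraries lay wholly below in 40.9% and wholly above in 41%. HERC5, OASL, IFI44 and IFIH1 passed the filter through the DMSO libraries alone, where they are higher, so their direction was set by the filter. Of the other 22 genes, 16 fell and 1 rose. HERC5, OASL, IFI44 and IFIH1 are all among the 20 genes with wogonin below DMSO, and each lies below the median of -0.92. Among the 11 falls of 1 log2 unit are HERC5, OASL and IFI44, so these counts and the median rest in part on the filter. The summed level of all 37 genes was 561 and 580 CPM in wogonin 3 and 4 and 719 and 689 CPM in DMSO 1 and 2. In bulk RNA, fewer expressing cells and less RNA per cell cannot be told apart.

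**Figure D1:**
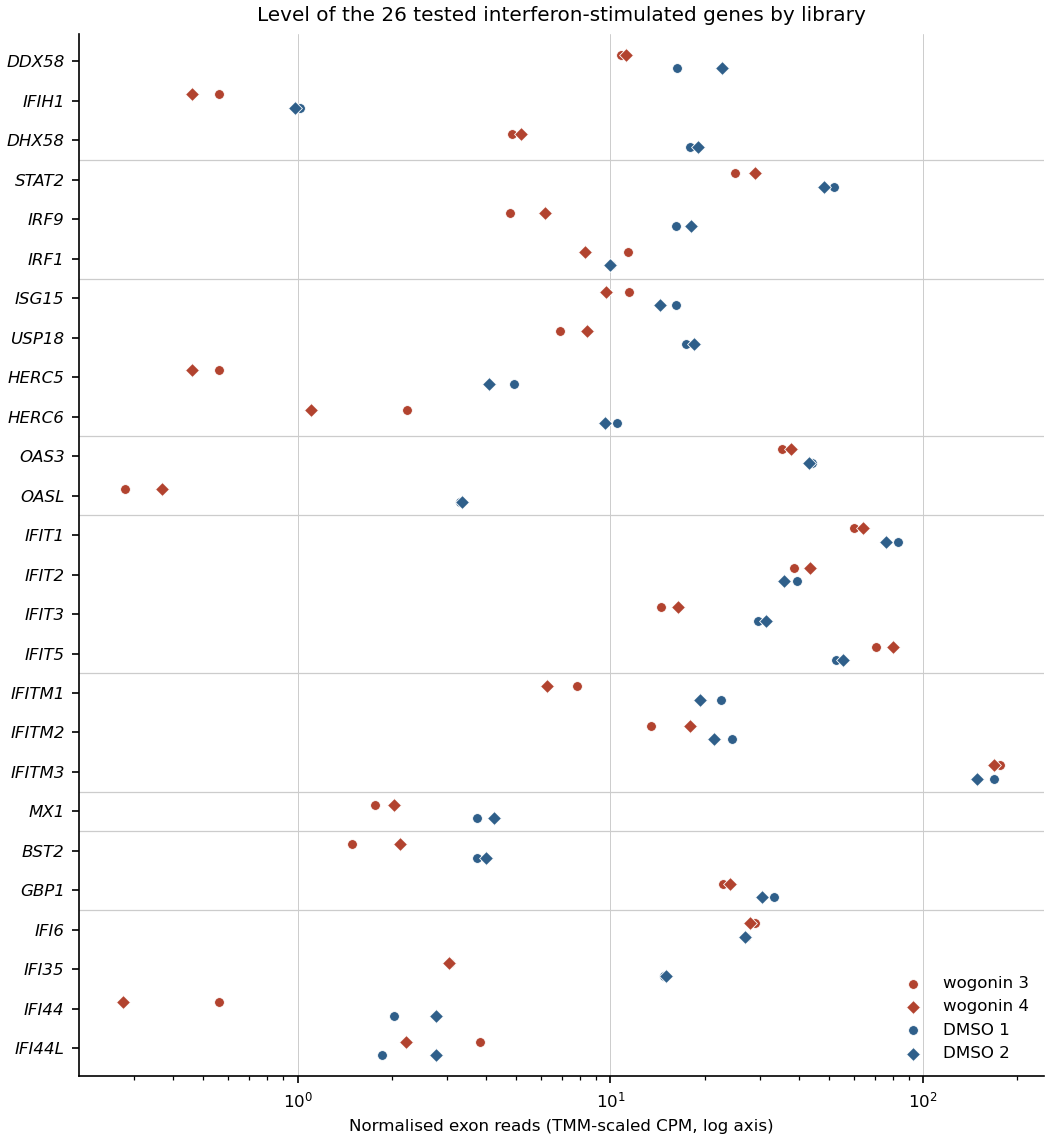
Normalised exon reads (CPM, log axis) of the 26 tested genes in each library, ordered by role from RNA sensors at the top to other inducible genes at the bottom, with wogonin in red above and DMSO in blue below on each line. In 20 genes both red points lie left of both blue points, and IFIT5 is the gene with a called shift to the right.

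Expression covered a wide range. On the per-length TPM scale the strongest was IFITM3, at 520 and 473 TPM in wogonin 3 and 4 and 528 and 476 TPM in DMSO 1 and 2. IFI6 had 133 and 122 TPM in wogonin against 133 and 134 TPM in DMSO, and IFIT1 77.8 and 78.9 TPM against 114 and 107 TPM. IFITM3 and IFI6 thus led the order in both groups and did not pass the test, while IFIT1, next in mean level, fell. IFITM3 made up 31.3% and 29.1% of the summed CPM of the 37 genes in wogonin 3 and 4, and 23.4% and 21.6% in DMSO 1 and 2.

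**Figure D2:**
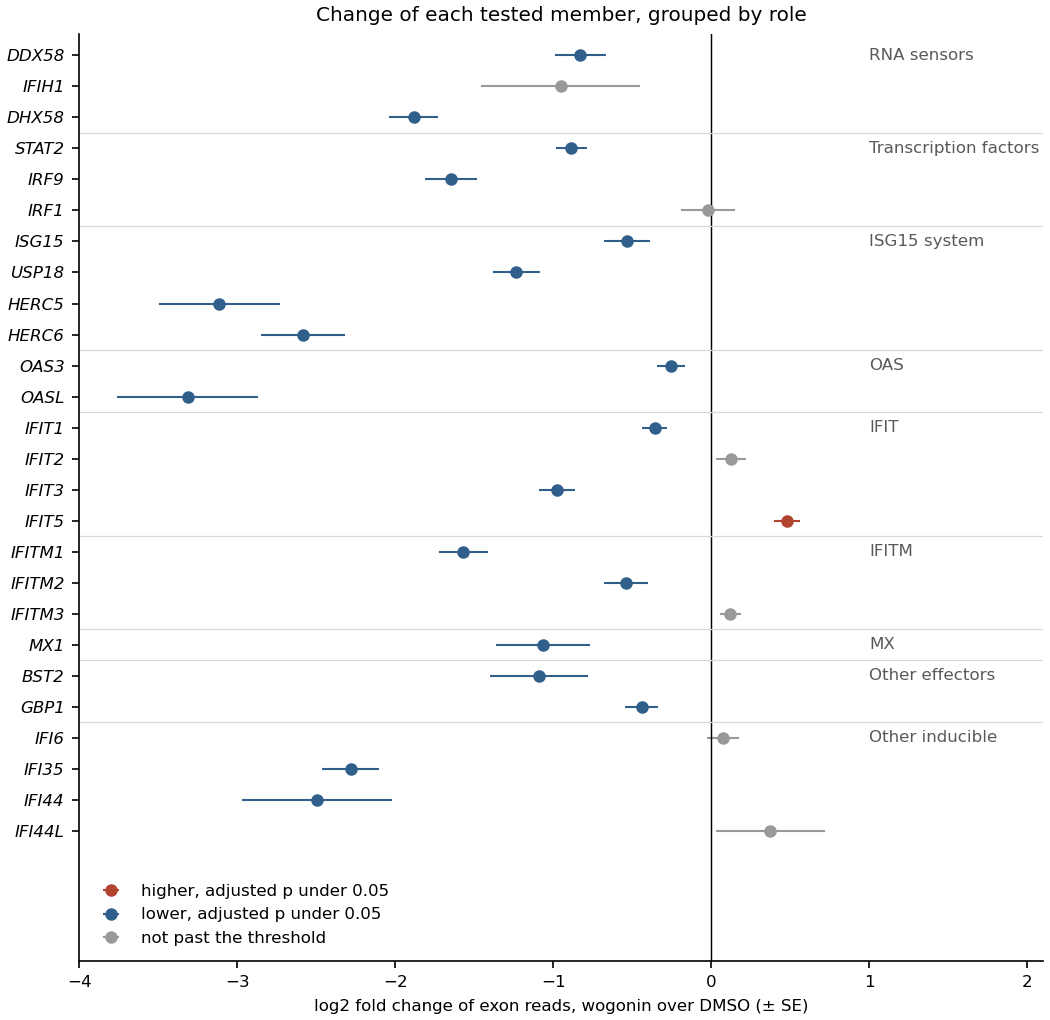
Log2 fold change of exon reads, wogonin over DMSO, for each of the 26 tested genes, with bars of 1 standard error, in the order of their roles. Points left of the line are lower in wogonin, and the falls run from -0.26 for OAS3 to -3.31 for OASL.

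Of the 3 RNA sensors, 2 fell. DDX58 encodes RIG-I, which detects viral RNA ends (ENSG00000107201, chromosome 9, 32455300 to 32526322). It had 10.8 and 11.2 CPM in wogonin 3 and 4, against 16.4 and 22.8 CPM in DMSO 1 and 2. Both wogonin libraries lay below both DMSO libraries, and the log2 fold change was -0.83 ± 0.16 (SE, edgeR adjusted p = 0.00039). When intron reads were counted with exon reads, the change was -0.30 and did not pass the test (adjusted p = 0.11). DHX58 encodes LGP2, which has no signalling domain and tunes the other sensors (chromosome 17, 40253422 to 40264751). Its level was 4.85 and 5.16 CPM in wogonin and 17.98 and 19.0 CPM in DMSO, groups far apart beside their spread, and it fell by 1.88 ± 0.15 on the log2 scale (adjusted p = 2.7e-08). IFIH1, the long-RNA sensor MDA5, had only 6 and 5 exon reads in wogonin against 12 and 12 in DMSO, a log2 fold change of -0.95 ± 0.50 that did not pass the test (adjusted p = 0.11). With intron reads counted as well, IFIH1 was called lower (-1.25, edgeR adjusted p = 0.038). In exon reads it passed the filter through the DMSO libraries alone, so the filter set its direction.

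Of the transcription factors, STAT2 and IRF9, parts of the interferon-activated complex, fell and IRF1 did not pass the test. STAT2 (chromosome 12, 56735381 to 56753939) had 25.0 and 29.0 CPM in wogonin 3 and 4 and 51.7 and 48.1 CPM in DMSO 1 and 2. The groups were well separated, with a log2 fold change of -0.88 ± 0.10 (adjusted p = 9.96e-07). IRF9, which gives the complex its DNA specificity (chromosome 14, 24630262 to 24635774), had 4.76 and 6.18 CPM in wogonin and 16.2 and 18.1 CPM in DMSO, and fell by 1.65 ± 0.17 on the log2 scale (adjusted p = 2.6e-07). The IRF9 row lies wholly inside the row of a clone-named protein-coding locus on the same strand, and only 1.51% of its exon reads were uniquely placed. That locus had 48 and 18 exon reads in wogonin and 34 and 5 in DMSO, and the sum of both rows was 99 and 85 reads in wogonin against 225 and 227 in DMSO. Reads spanning IRF9 splice junctions were 12 and 29 in wogonin and 103 and 119 in DMSO, again without overlap. IRF1, an interferon gamma-induced activator, had 11.4 and 8.30 CPM in wogonin around the 10.0 and 9.95 CPM of DMSO (log2 fold change -0.02 ± 0.17, adjusted p = 0.92). IRF7, the amplifier of interferon alpha genes, was too low to test, with 14 and 5 exon reads in wogonin and 5 and 3 in DMSO.

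All 4 genes of the ISG15 system were called lower, as were 31.5% of all genes tested, and for HERC5 the filter set the direction. ISG15 is a ubiquitin-like protein that is attached to other proteins (chromosome 1, 948803 to 949920). Its level was 11.5 and 9.68 CPM in wogonin 3 and 4 and 16.2 and 14.4 CPM in DMSO 1 and 2. The groups did not overlap, and the log2 fold change was -0.53 ± 0.14 (adjusted p = 0.0042). That call was lost with DESeq2 (adjusted p = 0.057) and without DMSO 1 (-0.47, adjusted p = 0.055), and in the few junction reads, 23 and 15 in wogonin against 24 and 17 in DMSO, the change was 0.05. USP18, the protease that removes ISG15 and also restrains the interferon receptor, had 6.91 and 8.39 CPM in wogonin and 17.5 and 18.5 CPM in DMSO, and fell by 1.23 ± 0.15 (adjusted p = 2.0e-06). Both ligase genes also fell. HERC5, the main human ISG15 ligase (chromosome 4, 89378268 to 89427314), had 6 and 5 exon reads in wogonin and 58 and 50 in DMSO, a log2 fold change of -3.11 ± 0.38 (adjusted p = 2.8e-06). Its neighbour HERC6, which does that work in mouse, had 24 and 12 reads in wogonin and 124 and 118 in DMSO, a change of -2.58 ± 0.26 (adjusted p = 3.3e-07). HERC5 passed the filter through the DMSO libraries alone, so the filter set its direction. In wogonin it stood within a few reads of the floor of 3 counts used here, so the size of its fall is uncertain. HERC6 passed the filter in both groups, and every wogonin library lay far below every DMSO library.

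The oligoadenylate synthetases make short adenylate chains that switch on RNase L, and only OAS3 and OASL had enough reads to test. OAS3, the one strongly expressed member (chromosome 12, 113376157 to 113411054), had 35.3 and 37.8 CPM in wogonin and 44.1 and 43.2 CPM in DMSO. The groups did not overlap but lay close, with a log2 fold change of -0.26 ± 0.09 (adjusted p = 0.021), and this call was lost in 7 of 15 alternative settings. Its neighbours were nearly silent: OAS1 had 0 and 0 exon reads in wogonin against 5 and 6 in DMSO, and OAS2 had 4 and 2 against 2 and 2, too few to test. The OAS3 and OAS2 rows lie inside the antisense row RP1-71H24.1, which had 0 exon reads in every library. Even so, only 30.3% of OAS3 exon reads were marked as uniquely placed, all of them junction reads. In uniquely placed exon reads its change was -0.29 and did not pass the test (edgeR adjusted p = 0.075). OASL, a family member without synthetase activity that assists RIG-I, lies elsewhere on the chromosome (121458095 to 121477045). It had 3 and 4 reads in wogonin and 39 and 41 in DMSO (-3.31 ± 0.45, adjusted p = 7.4e-06). OASL passed the filter through the DMSO libraries alone and in wogonin lay at or next to the floor of 3 counts, so the filter set its direction and the size of its fall is uncertain.

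The IFIT genes encode antiviral proteins, some of which bind foreign RNA ends. Within their cluster on chromosome 10, IFIT3 and IFIT1 fell and IFIT5 rose. IFIT3 (91087651 to 91100728) had 14.5 and 16.5 CPM in wogonin 3 and 4 and 29.6 and 31.4 CPM in DMSO 1 and 2, and fell by 0.98 ± 0.11 on the log2 scale (adjusted p = 1.6e-06). IFIT1 (91152303 to 91163745) had 60.1 and 64.3 CPM in wogonin and 83.1 and 76.1 CPM in DMSO, a fall of 0.36 ± 0.08 (adjusted p = 0.00090). Both genes were lower in every wogonin library than in any DMSO library. IFIT5, which acts without the other family members (91174343 to 91180758), had 70.7 and 80.0 CPM in wogonin and 52.6 and 55.5 CPM in DMSO. Every wogonin library lay above every DMSO library, and the log2 fold change was 0.48 ± 0.08 (adjusted p = 9.8e-05). IFIT2 (91061712 to 91069033) had 38.5 and 43.5 CPM in wogonin and 39.4 and 35.9 CPM in DMSO, groups that overlapped (0.12 ± 0.10, adjusted p = 0.28). The counting bears on these values. IFIT1, IFIT2 and IFIT3 lie wholly inside the span of LIPA, a lysosomal lipase gene on the opposite strand, and 2.58%, 2.51% and 0.562% of their exon reads were marked as uniquely placed. For IFIT5, which lies just outside LIPA, it was 100%. LIPA had 8632 and 9972 exon reads in wogonin and 11132 and 11304 in DMSO. No strand setting is given for the counting, so reads of overlapping genes cannot be told apart, and in uniquely placed reads the IFIT1 change was -0.47 and did not pass the test (adjusted p = 0.27). The IFIT5 call was lost in junction reads, which numbered 19 and 10 in wogonin and 8 and 13 in DMSO.

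The IFITM genes encode small membrane proteins that block virus entry, and 2 of the 3 fell. IFITM1, found mostly at the cell surface (chromosome 11, 313506 to 315272), had 7.84 and 6.27 CPM in wogonin and 22.6 and 19.3 CPM in DMSO. The wogonin libraries were far below both DMSO libraries, and the gene fell by 1.57 ± 0.15 on the log2 scale (adjusted p = 2.0e-07). IFITM3, an endosomal restriction factor (319669 to 327537), had 176 and 169 CPM in wogonin and 168 and 149 CPM in DMSO, with a log2 fold change of 0.12 ± 0.07 that did not pass the test (adjusted p = 0.13). IFITM2 (307631 to 315272) had 13.5 and 17.98 CPM in wogonin and 24.5 and 21.4 CPM in DMSO, a fall of 0.54 ± 0.14 (adjusted p = 0.0032). Its call was lost without DMSO 1 (-0.46) and without wogonin 3 (-0.34). The IFITM2 row spans the whole IFITM1 row on the same strand, and 23.2% of IFITM1 and 25.6% of IFITM3 exon reads were uniquely placed, all of them junction reads, against 95.7% of IFITM2 exon reads. How the counting divided reads among these related and overlapping rows is uncertain.

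**Figure D3:**
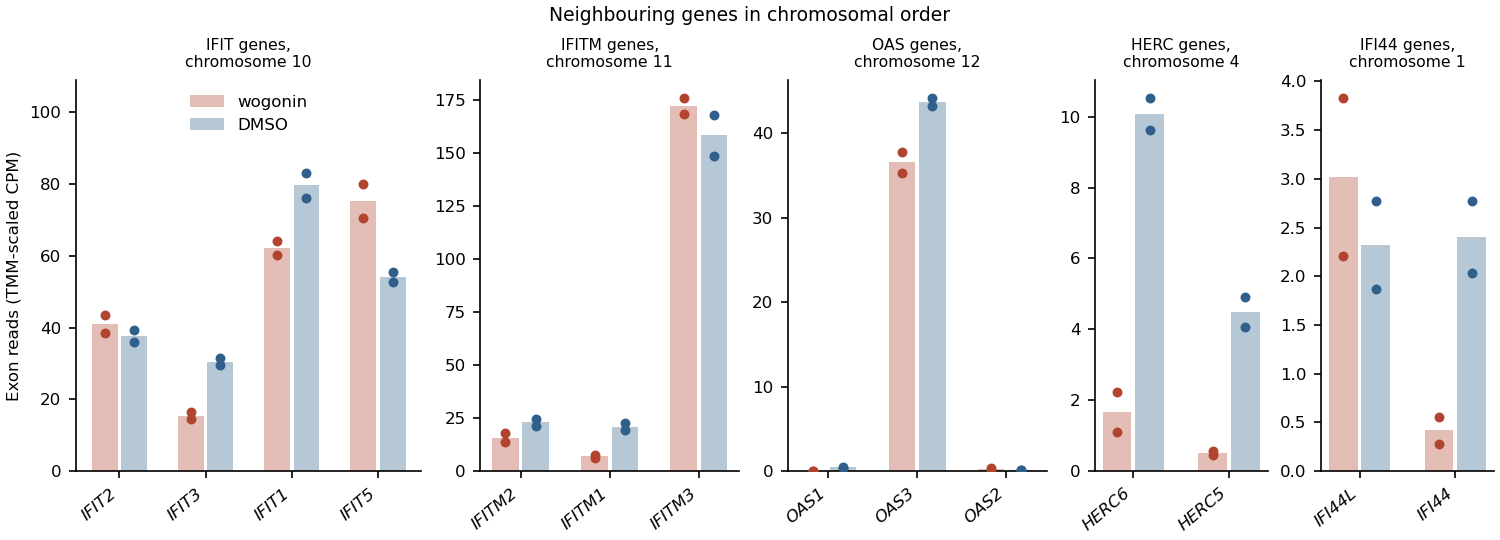
Exon reads (CPM) of interferon-stimulated genes that sit side by side, in chromosomal order, with bars at the mean of 2 libraries and a point per library, wogonin left of DMSO. Within the IFIT cluster IFIT3 and IFIT1 were lower in wogonin and IFIT5 was higher, and within the IFITM cluster IFITM1 fell and IFITM3 lay between 149 and 176 CPM in all libraries.

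Among the remaining effectors MX1, BST2, GBP1 and IFI35 fell. MX1, a dynamin-like GTPase that traps viral nucleoproteins (chromosome 21, 42792231 to 42831141), had 19 and 22 exon reads in wogonin and 44 and 52 in DMSO (-1.06 ± 0.30, adjusted p = 0.0052). BST2, or tetherin, which holds budding virus at the cell surface (chromosome 19, 17513748 to 17516457), had 16 and 23 reads in wogonin and 44 and 49 in DMSO (-1.09 ± 0.31, adjusted p = 0.0056). Neither gene's groups overlapped, but both calls were lost with DESeq2 (adjusted p of 0.064 each) and without DMSO 2 (0.056 for MX1 and 0.053 for BST2), and that of BST2 also without wogonin 3 (0.056). GBP1, a GTPase that coats intracellular pathogens (chromosome 1, 89518002 to 89531043), had 23.0 and 24.1 CPM in wogonin and 33.3 and 30.5 CPM in DMSO, and fell by 0.44 ± 0.10 (adjusted p = 0.0015). IFI35, a leucine zipper protein that pairs with NMI (chromosome 17, 41158742 to 41166473), had 33 and 33 exon reads in wogonin and 175 and 184 in DMSO. Its libraries agreed within each group, and the fall of 2.28 ± 0.18 kept its call under all 15 alternatives (adjusted p = 1.7e-08).

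IFI44 and IFI44L are neighbours on chromosome 1 with related products, and IFI44 fell. IFI44 (79115481 to 79129763) had 6 and 3 exon reads in wogonin and 24 and 34 in DMSO (-2.50 ± 0.47, adjusted p = 0.00023), and it too passed the filter through DMSO alone. IFI44L (79085607 to 79111830) had 41 and 24 reads in wogonin and 22 and 34 in DMSO, groups that overlapped (0.37 ± 0.34, adjusted p = 0.36). The difference between the 2 changes was not tested. IFI6, a membrane protein of the endoplasmic reticulum that restricts flaviviruses (27992572 to 27998729), had 28.9 and 27.9 CPM in wogonin and 27.1 and 26.8 CPM in DMSO (0.08 ± 0.10, adjusted p = 0.53), and the sign turned under 5 alternatives.

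The 11 genes that did not pass the filter had at most 14 exon reads in any library. MX2 had 0 in all 4, which allows up to 3 reads or between 0.253 and 0.273 CPM per library. RSAD2 (viperin), which makes a chain-ending nucleotide, had 9 and 2 reads in wogonin and 4 and 3 in DMSO, and its neighbour CMPK2, a nucleotide kinase, had 2 and 4 against 8 and 5. The exonuclease gene ISG20 had 5 and 2 reads in wogonin and 3 and 9 in DMSO. For these genes no difference was detectable at this depth. SAMD9, a poxvirus restriction factor, had 0 and 0 reads in wogonin and 3 and 2 in DMSO, TRIM22, a ubiquitin ligase gene, 0 and 0 against 0 and 1, and XAF1, a partner of the apoptosis inhibitor XIAP, 0 and 0 against 1 and 1. IFI27 was the reverse case, with 4 and 13 reads in wogonin and 0 and 2 in DMSO. With no filter on low counts, OAS1 (lower, edgeR adjusted p = 0.0077) and IFI27 (higher, adjusted p = 0.0038) passed the test, and the other 8 genes with any reads did not.

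Reads that span exon junctions come from spliced RNA and are marked as such in the tables. Of 23 interferon-stimulated genes tested on junction reads, 15 fell (edgeR adjusted p under 0.05), while 28% of the 11251 genes tested fell and 27.6% rose. The 15 were DDX58, DHX58, STAT2, IRF9, USP18, HERC5, HERC6, OASL, IFITM1, IFITM2, MX1, BST2, GBP1, IFI35 and IFI44. In wogonin 3 and 4 the junction reads were 5 and 4 for HERC5, 1 and 1 for OASL, and 5 and 1 for IFI44. These lie under the minimum of 10 counts, so the 3 genes passed through DMSO alone and the filter set their direction. STAT2 junction reads were 139 and 188 in wogonin against 351 and 337 in DMSO, and those of IFI35 were 18 and 22 against 102 and 109.

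Intron reads, which come mostly from unspliced RNA, were enough to test in 7 of the genes. DHX58, HERC6 and IFITM2 fell, DDX58 rose, and STAT2, USP18 and IFITM3 did not pass the test, where 8.82% of the 10495 genes tested fell and 11.3% rose. DDX58 had 91 and 66 intron reads in wogonin 3 and 4 and 20 and 23 in DMSO 1 and 2. Introns thus made up 44.0% (95% Wilson interval 37.4 to 50.8%) and 35.1% (28.6 to 42.2%) of its reads in wogonin, and 9.39% (6.16 to 14.1%) and 7.62% (5.13 to 11.2%) in DMSO. The log2 fold change of its intron reads was 1.55 ± 0.31 (adjusted p = 0.0029), and without DMSO 1 or DMSO 2 it was 1.47 and 1.62 with the call lost (0.095 and 0.059). The exon change minus the intron change was -2.44 ± 0.34 (adjusted p = 0.00064), which held without each library in turn (-2.58 to -2.26). DDX58 alone of the 7 passed that test, in which 6.42% of 9475 genes were lower and 4.15% higher. Wogonin 3 has the highest intron share over all genes, and without it the DDX58 intron change was 1.62 and the exon minus intron value was -2.49.

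The called falls in intron reads rest on few reads. HERC6 had 1 and 1 intron reads in wogonin and 11 and 12 in DMSO (-3.66 ± 0.71, adjusted p = 0.0023). DHX58 had 6 and 6 in wogonin and 21 and 12 in DMSO (-1.74 ± 0.53, adjusted p = 0.029). Both passed the intron filter through the DMSO libraries alone. IFITM2 had 37 and 29 intron reads in wogonin and 66 and 57 in DMSO (-1.20 ± 0.31, adjusted p = 0.012), in a row that also spans IFITM1. STAT2 had 37 and 11 in wogonin and 27 and 22 in DMSO, so that wogonin 3 and 4 lay on either side of DMSO. With DESeq2 the 3 falls had adjusted p between 0.051 and 0.19, and without DMSO 1 or DMSO 2 none of them was called, HERC6 then not passing the filter.

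**Figure D4:**
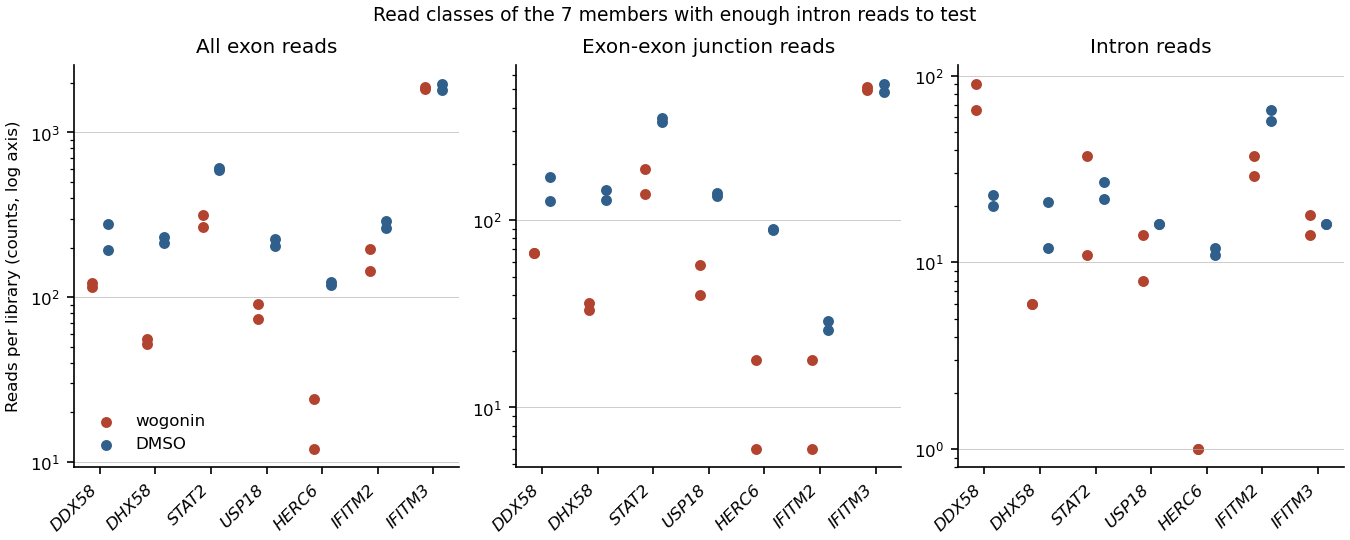
Exon, junction and intron reads per library (counts, log axes) of the 7 genes tested on introns, wogonin in red left of DMSO in blue. DDX58 is the gene whose red points lie below the blue ones for exon and junction reads and above them for intron reads (91 and 66 against 20 and 23).

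The genes upstream of the response were read from lists of other pathway members. No interferon transcript was seen: all 21 interferon genes, IFNB1 among them, had 0 exon reads in every library, which allows up to 3 reads each. The receptors and their kinases were present, and of 10 tested 2 rose and 2 fell, with a median log2 fold change of 0.03. Over all genes tested 32.3% rose and 31.5% fell. JAK1 had 60.8 and 54.0 CPM in wogonin and 89.1 and 87.4 CPM in DMSO, and fell by 0.62 ± 0.08 (adjusted p = 4.0e-06). Its partner kinase TYK2 went the other way, with 152 and 146 CPM in wogonin and 111 and 93.6 CPM in DMSO (0.54 ± 0.08, adjusted p = 2.4e-05). IFNLR1, the interferon lambda receptor chain, had 9.99 and 9.68 CPM in wogonin and 20.5 and 16.6 CPM in DMSO (-0.92 ± 0.14, adjusted p = 3.9e-05), and its co-receptor IL10RB rose by 0.32 ± 0.09 (adjusted p = 0.0044). In junction reads neither call held (adjusted p of 0.051 for IFNLR1 and 0.11 for IL10RB), and that of IL10RB was also lost without DMSO 2 (0.25, adjusted p = 0.069). The interferon alpha receptor genes IFNAR1 (0.07 ± 0.08, adjusted p = 0.49) and IFNAR2 (0.20 ± 0.10, adjusted p = 0.081) did not pass the test.

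Of the negative regulators, 9 were tested, 3 rose and 3 fell, with a median log2 fold change of -0.18. CISH, a cytokine-induced SH2 protein, had 5.69 and 7.65 CPM in wogonin and 2.29 and 1.79 CPM in DMSO (1.71 ± 0.27, adjusted p = 4.1e-05). SOCS3, which blocks receptor kinases, had 2.05 and 1.94 CPM in wogonin and 7.21 and 7.02 CPM in DMSO (-1.83 ± 0.25, adjusted p = 7.3e-06). The phosphatase gene PTPN1 rose (log2 fold change 0.65 ± 0.07), and PIAS3, a STAT inhibitor, fell by 0.45 ± 0.07. The list's shares of rises and falls were near the 32.3% and 31.5% over all genes tested.

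Among 11 tested genes of nucleic acid sensing outside the 37, 6 rose and 5 fell, with a median log2 fold change of 0.31, where 32.3% of all genes tested rose and 31.5% fell. TLR3, the endosomal RNA receptor, had 2.05 and 3.87 CPM in wogonin and 16.6 and 15.9 CPM in DMSO (-2.45 ± 0.21, adjusted p = 9.5e-08). IKBKE, a kinase that acts with TBK1, had 5.32 and 5.72 CPM in wogonin and 20.8 and 20.6 CPM in DMSO (-1.90 ± 0.15, adjusted p = 1.3e-08). TBK1 itself rose, at 108 and 115 CPM in wogonin against 66.7 and 77.2 CPM in DMSO (0.63 ± 0.08), as did TRIM25, a ubiquitin ligase that acts on RIG-I (0.48 ± 0.06). MAVS, the adaptor of RIG-I, fell by 0.44 ± 0.08 (adjusted p = 0.00013) and IRF3, the factor it activates, by 0.19 ± 0.08 (adjusted p = 0.045, lost in 9 alternatives). TMEM173, which encodes the adaptor STING, had 1 and 0 exon reads in wogonin and 8 and 2 in DMSO and was not tested. Of 37 other interferon-induced genes tested of a list of 51, 19 fell, 9 rose and 9 did not pass the test, with a median log2 fold change of -0.50, against the same shares over all genes. DDX60, a helicase, had 6.72 and 6.27 CPM in wogonin and 21.97 and 20.2 CPM in DMSO (-1.70 ± 0.14, adjusted p = 3.8e-08), and PARP14, an ADP-ribosyltransferase, fell by 1.00 ± 0.09 (adjusted p = 9.1e-08). SLFN5, a Schlafen family gene, had 26.04 and 22.4 CPM in wogonin and 3.65 and 4.89 CPM in DMSO (2.50 ± 0.17, adjusted p = 2.5e-09), and ZC3HAV1, the zinc finger antiviral protein, rose (0.84 ± 0.07, adjusted p = 5.8e-08).

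**Figure D5:**
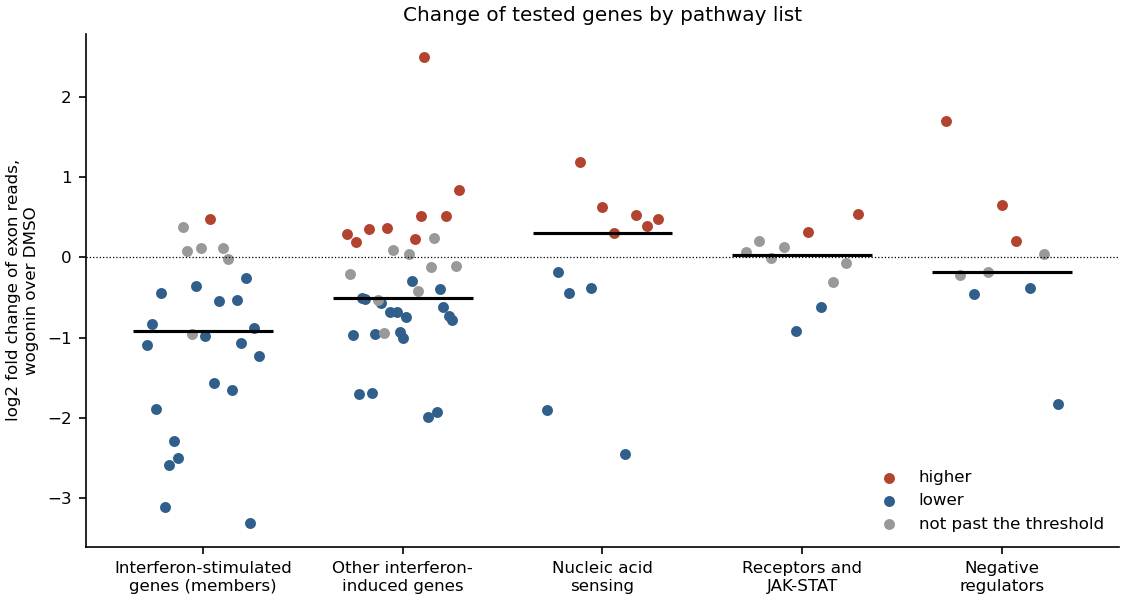
Log2 fold change of exon reads, wogonin over DMSO, of every tested gene in 5 lists, coloured by call, with a black line at each list's median. The medians are -0.92 for the 26 tested interferon-stimulated genes, -0.50 for other interferon-induced genes, 0.31 for nucleic acid sensing, 0.03 for receptors and JAK-STAT, and -0.18 for negative regulators. The 26 include 4 genes that passed the filter through DMSO alone.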

How the data were processed

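RNA from A2780 cells was made into libraries with a SMARTER mRNA kit, per the labels' protocols, and sequenced in 2 wogonin and 2 DMSO libraries. The authors deposited 1 gene table per library, with counts of exon, intron, junction and gene reads, total and uniquely placed, per the file headers. The tables also hold TPM and RPKM values and a fraction of unique or intron reads computed by the authors, per the file headers. RPKM and the fractions were not used further. The submitters' processing notes name GRCh37 and hg19. No source used here names the aligner, annotation release or strand setting.

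The main test took the total exon counts into edgeR 4.0.16 under R 4.3.3 (filterByExpr with a minimum of 10 counts, TMM, robust quasi-likelihood fit, 2-sided), with Benjamini-Hochberg adjustment over all genes tested and a threshold of 0.05. Each SE belongs to its log2 fold change. Intron counts had a fit of their own, and exon minus intron changes came from 1 fit with a term per library. The fits were tested on simulated data. With 2 libraries in each group, the smallest exact permutation p is 0.333. Shares carry 95% Wilson intervals, and intervals and the floor of 3 counts cover counting error only. Gene rows without exons number 20986 and stay out of intron shares.

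The genes and all lists were chosen with earlier results of these data known. All 37 genes are named, and of each other list up to 4 with the smallest adjusted p, plus IFNB1, IFNAR1, IFNAR2, JAK1, TYK2, IRF3, MAVS and TMEM173. A further gene of that rule is not reported here. Marker genes are named to check the cell type. Alternatives were other scalings, filters, tools (DESeq2 1.42.0, limma 3.58.1) and count columns, a size threshold and leaving out each library.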

Additional observations from a re-analysis of the deposited data

How the results depend on the processing

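No paired analysis was possible because the groups share no replicate number (3 and 4 in wogonin, 1 and 2 in DMSO). The count of 19 interferon-stimulated genes that fell was 15 to 20 under other scalings, filters, tools and count columns and 16 to 19 without single libraries, and 11 of the falls reached 1 log2 unit. The count of 1 that rose was 2 with no filter, 3 in total or unique gene reads, 0 in junction reads and at 1 log2 unit, and 1 to 2 without single libraries. Of the 20 called genes, 12, all lower, kept the call in every alternative run that tested them. Of 15 such runs, IRF9 was tested in 13 and IFIT3 in 12, for lack of reads in the rest. IFIT3 had 1 and 4 uniquely placed exon reads in wogonin 3 and 4 against 1 and 0 in DMSO 1 and 2. HERC5, OASL and IFI44, whose direction the filter set, are among the 12. The other 8 were DDX58, ISG15, OAS3, IFIT1, IFIT5, IFITM2, MX1 and BST2. The median over all genes was -0.09 with library totals or upper quartiles.

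Signs turned for ISG15 in junction reads (0.0462) and for IFI6 with library totals (-0.0171), upper quartiles (-0.0171), total gene reads (-0.0245), unique gene reads (-0.0110) and junction reads (-0.32). Without single libraries IRF1 ranged from -0.26 to 0.19, IFI44L from -0.0649 to 0.71 and IFNAR1 from -0.0295 to 0.15. IFNAR1 also turned with library totals (-0.0229), upper quartiles (-0.0229), total gene reads (-0.0451), unique gene reads (-0.0338) and junction reads (-0.0821), and IFNAR2 in unique exon (-0.21), unique gene (-0.18) and junction reads (-0.17). Values that turned did not pass the test, and the cause was not tested.

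Intron falls numbered 3, or 1 with exon scaling, 0 with DESeq2 and 0 to 3 without single libraries. Intron rises numbered 1, or 2 with no filter and 0 to 2 without single libraries. Exon scaling turned the intron values of STAT2 (0.13) and IFITM3 (0.16). Exon minus intron falls numbered 1, and 1 to 2 without single libraries, where that difference ranged from -0.70 to 0.24 for DHX58 and from -1.01 to 0.30 for STAT2.

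Receptors had 2 falls, or 4 with library totals and upper quartiles, 1 in junction reads and 0 at 1 log2 unit, and 2 rises, or 1 in junction reads, 0 at 1 log2 unit and 1 to 2 without single libraries. Negative regulators had 3 falls, or 5 with library totals, upper quartiles and no filter and 1 at 1 log2 unit, and 3 rises, or 1 at 1 log2 unit. Sensing genes had 5 falls, or 3 with DESeq2 and junction reads, 2 at 1 log2 unit and 3 to 4 without single libraries, and 6 rises, or 3 with DESeq2, total gene reads and junction reads, 1 at 1 log2 unit and 3 to 5 without single libraries. Other interferon-induced genes had 19 falls and 9 rises, or 5 and 1 at 1 log2 unit. The motif followed by a further C was in 57.1% of the matched promoters and 0.952% of all genes.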

Other observations

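The enzymes that activate and pass on ISG15 are not among the 37 genes, and were picked here after their values were seen. UBA7, the ISG15-activating enzyme, had 26 and 33 exon reads in wogonin and 58 and 51 in DMSO (log2 fold change -0.73 ± 0.28, edgeR adjusted p = 0.030), a call that was lost with DESeq2 (adjusted p = 0.17). UBE2L6, the carrier enzyme, had 20.9 and 19.9 CPM in wogonin and 37.8 and 32.3 CPM in DMSO (-0.78 ± 0.11, adjusted p = 1.3e-05). For UBA7 and UBE2L6 the wogonin libraries lay wholly below the DMSO libraries, as they did in 40.9% of all genes tested.

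The antiviral RNA-binding enzymes ADAR and EIF2AK2, also picked after their values were seen, were higher in exon reads. ADAR, an RNA editing enzyme, had 607 and 624 CPM in wogonin and 494 and 510 CPM in DMSO (0.29 ± 0.05, adjusted p = 0.00015). EIF2AK2, the kinase PKR, had 302 and 287 CPM in wogonin and 226 and 234 CPM in DMSO (0.36 ± 0.06, adjusted p = 4.2e-05). Its junction reads were 746 and 719 in wogonin and 777 and 851 in DMSO, where the change did not pass the test (log2 fold change 0.0050, adjusted p = 0.96), while for ADAR the junction change was 0.26 (adjusted p = 0.0014). IFI30, a lysosomal reductase gene, had 519 exon reads in wogonin 3 and 58 in wogonin 4, against 468 and 465 in DMSO 1 and 2, so that 1 wogonin library stood apart. None of its exon or junction reads was uniquely placed in any library, and how the counting assigned them to this row is not known.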
